A study of Mus musculus with 4 samples.

Results

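Fabp3, Ctrb1 and Smim5 are 3 of the 32285 genes counted in cultured mouse muscle stem cells, and are described here across single cells. They were chosen by their own UMI counts, as transcripts that vary between differentiating muscle cells, so their levels and spread are given as a description and without a test. A UMI (unique molecular identifier) marks 1 captured molecule. Of the 5944 barcodes found in every file, 5481 were kept, those with a mean of 1000 genes or more and a mitochondrial share of UMIs below 10%. Of these, 1854 cells (33.8%) with Myog at 1500 CPM (UMIs per 1000000) or more and Mki67 plus Top2a under 75 CPM are called myocytes below, meaning muscle cells past the start of differentiation with few transcripts of division. With Mki67 plus Top2a at 0 instead, Fabp3 stood at 81.4 CPM in them in place of 66.7 CPM, and Ctrb1 and Smim5 changed little (87.4 and 139 CPM).

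The cells came from skeletal muscle of mice of genotype MyoD-KI, a knock-in in which the red protein tdTomato reports MyoD. They had been in culture for 5 days in serum-rich growth medium, with no differentiation medium named in the labels, and the fraction brightest for MyoD-tdTomato was sorted by flow cytometry and profiled with the 10x Genomics 3-prime v3.1 kit. All libraries belong to this 1 group, since the low-signal population is not analysed here. Strain, age, sex and the number of animals are not given in the labels.

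The files are labelled replicates 1 to 4 and hold 62627341 to 68898900 UMIs each. Any 2 of them shared 99.9% of the barcodes of the smaller file, and 99.6% to 100% of 500 drawn cells matched their own barcode in another file better than the other drawn cells. They were therefore counted as repeat libraries of 1 sample. The same molecule may be counted in more than 1 file, so UMIs summed over the files are not numbers of molecules. Each value below rests on UMIs summed over the files, with an exact 95% Poisson (levels) or binomial (shares) interval at the mean count of 1 file. This interval covers counting error only, not the spread between cells, and says nothing of animals or cultures. Myocytes had a median of 10956 UMIs per file. The 6 muscle markers summed to 6577 CPM in them, of which Myog, used to choose these cells, gave 4194 CPM. Des gave 1688 CPM, and Myod1, whose reporter was used for sorting, gave 609 CPM. The 4 endothelial markers summed to 0.547 CPM and the 4 macrophage markers to 0.501 CPM. The 6 fibroblast markers summed to 49.4 CPM, of which Col3a1 gave 49.0 CPM.

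In a dish, activated muscle stem cells divide as myoblasts, leave the cell cycle, switch on Myog (myogenin, a transcription factor of terminal differentiation) and then build the contractile apparatus, in which Acta1 encodes skeletal alpha-actin and Myh3 the embryonic myosin heavy chain. Fabp3 encodes the heart-type fatty acid binding protein, a cytosolic carrier of long-chain fatty acids that is abundant in heart and oxidative muscle. Ctrb1 encodes chymotrypsinogen B1, the precursor of a digestive protease known from the acinar cells of the pancreas, and Smim5 encodes a small integral membrane protein.

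Positions come from the GENCODE M21 annotation of GRCm38, by Ensembl identifier. Fabp3 lies on chromosome 4 at chr4:130308595-130315463, plus strand, with 4 exons, and Ctrb1 on chromosome 8 at chr8:111686519-111691010, minus strand, with 7 exons. Smim5 lies at chr11:115899966-115906269, plus strand, inside the gene Recql5 of the opposite strand, without overlap of their exons. The short coding sequence of Smim5 is shown because the protein is little known and because its annotated transcripts differ in it. Capitals mark the start and stop codons, and 2 transcripts hold the first sequence (237 bases, 78 codons before the stop) and 1 the other (156 bases, 51 codons).

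Smim5 longer coding sequence: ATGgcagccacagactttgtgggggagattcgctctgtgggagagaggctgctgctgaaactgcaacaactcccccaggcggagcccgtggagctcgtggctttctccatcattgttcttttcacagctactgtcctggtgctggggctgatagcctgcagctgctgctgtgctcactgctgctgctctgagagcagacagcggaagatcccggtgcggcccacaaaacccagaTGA
Smim5 shorter coding sequence: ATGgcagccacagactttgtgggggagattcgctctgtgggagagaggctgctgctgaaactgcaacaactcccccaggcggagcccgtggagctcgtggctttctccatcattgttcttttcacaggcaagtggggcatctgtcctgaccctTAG

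The counts do not separate these transcripts. Since the genes are described along Myog, an E-box factor like MyoD, the 250 bases before the RefSeq start sites (GRCm38.p6) of Fabp3 and Ctrb1 were searched on both strands for the E-box CANNTG. Each held 1 match, at 45 bases (Fabp3, CATGTG) and 205 bases (Ctrb1, CAGCTG) before that start. The annotations differ for Fabp3: its GENCODE transcript starts further upstream, so in that annotation the match lies inside the gene, ahead of the coding start, and not in front of it. The match of Ctrb1 is shown in capitals with its flanks.

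Ctrb1 E-box, chr8:111691198-111691227, minus strand: tgttaatcagagCAGCTGtccttttcccat

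CANNTG occurs in 66.2% of 32851 such windows and CAGCTG, 1 form of it, in 13.0%, so these matches describe the windows only. The motifs named MEF2 and CArG, also searched, had 0 matches in both windows, and occur in 2.92% and 1.47% of all windows. Counting could be blurred at Fabp3 and Smim5. Of the 793 stretches of 31 bases in the Fabp3 transcript, 296 (37.3%) also occur in Fabp3-ps1 or Gm16179, which have no row in the files. In its last 300 bases 32 of 270 do. Its 3-prime exon overlaps Zcchc17 of the opposite strand by 81 bases, and without a stated strand setting the reads there cannot be told apart, while Zcchc17 stood at 106 CPM both in myocytes and in other kept cells. No such stretch of the spliced transcripts of Ctrb1 or Smim5 occurs in another gene. Unspliced reads of Recql5, which stood at 14.4 CPM in myocytes, could be counted at Smim5 if strand was not used.

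Smim5 was the most abundant of the 3 transcripts in myocytes, followed by Ctrb1 and Fabp3, in CPM. Fabp3 stood at 66.7 CPM (interval 63.2 to 70.2), with 68.4, 63.1, 67.3 and 67.9 CPM in replicates 1 to 4. Ctrb1 stood at 87.4 CPM (83.5 to 91.4), with 88.3, 85.9, 90.1 and 85.0 CPM. Smim5 stood at 134.6 CPM (130 to 140), with 135, 135, 133 and 134 CPM. The files of 1 gene lay closer together than the genes did.

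In the other 3627 kept cells the levels were 9.94 CPM for Fabp3, 23.8 CPM for Ctrb1 and 14.7 CPM for Smim5. Myocytes are 33.8% of kept cells and hold 32.6% of all their UMIs, but they held 76.4% of the UMIs of Fabp3, 63.9% of Ctrb1 and 81.6% of Smim5. In the 361 cells without a Myog UMI, Fabp3 stood at 3.82 CPM (1.97 to 6.68), Ctrb1 at 8.04 CPM (5.22 to 11.8) and Smim5 at 0.716 CPM (0.103 to 2.43). The genes parted in the 476 cells that had Myog at 1500 CPM or more together with Mki67 plus Top2a at 75 CPM or more, called dividing below. There Ctrb1 and Smim5 both stood at 69.7 CPM, whereas Fabp3 stood at 12.6 CPM.

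Along Myog, over all kept cells, Ctrb1 and Smim5 climbed while Fabp3 rose and then fell. Fabp3 went from 4.73 CPM (above 0 to 250 CPM of Myog, 2034 cells) through 13.6, 34.0 and 72.9 CPM (1500 to 3000, 768 cells) and back to 48.2 and 16.4 CPM (6000 and over, 332 cells). Ctrb1 passed through 9.05, 25.01, 46.2, 60.1 and 91.1 CPM to 123 CPM in the same bins. Smim5 passed through 1.07, 4.09, 28.8, 74.95 and 137 CPM to 185 CPM. Each step between these neighbouring bins exceeded the counting intervals, while the bin without Myog overlapped the one after it for all 3 genes. Among non-dividing cells alone Ctrb1 did not rise at every step, with 62.1 CPM at 750 to 1500 CPM of Myog (167 cells) and 57.5 CPM at 1500 to 3000 (482 cells), whose intervals overlap. Fabp3 still peaked there at 114 CPM and fell to 17.1 CPM in the highest bin, and Smim5 still rose from 1.17 to 185 CPM. From the lowest of these 6 bins to the highest, the log2 ratio of CPM plus 1 was 6.49 for Smim5 (6.08 to 6.93), 3.63 for Ctrb1 (3.40 to 3.86) and 1.60 for Fabp3 (1.13 to 2.06).

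The share of cells with a UMI followed the levels when each cell was thinned to 5000 UMIs per file, leaving out shallower cells. For Smim5 it went from 0.498% of 301 cells without Myog to 55.7% of 318 cells in the highest bin. For Ctrb1 it went from 2.91% to 21.2%. For Fabp3 it went from 1.91% to 12.6% of 743 cells at 1500 to 3000 CPM and then to 5.58%. Before thinning the shares over the summed files were 2.22% and 93.7% for Smim5, 8.31% and 38.6% for Ctrb1, and 9.70%, 33.1% and 23.5% for Fabp3, at median depths of 8009 UMIs per file without Myog, 12473 at 1500 to 3000 CPM and 9532 in the highest bin. Free RNA was not measured. The shares of all 3 genes in the highest bin lay above those of the cells without Myog, for Fabp3 with intervals that overlap (0.685% to 4.18% against 3.33% to 8.70%).

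Along the contractile transcripts Acta1 plus Myh3 the order of the genes changed. In the 6 bins of myocytes from under 100 to 10000 CPM and over (52, 98, 180, 329, 754 and 441 cells), Fabp3 stood at 7.96, 2.55, 4.56, 6.97, 19.7 and 211 CPM. It stayed within overlapping intervals over the first 4 bins and rose only in the last 2. Smim5 stood at 35.03, 34.3, 60.7, 92.0, 145 and 191 CPM. It was level over the first 2 bins and each later step exceeded the intervals. Ctrb1 stood at 115, 62.7, 76.7, 91.0, 87.8 and 89.4 CPM, highest in the first bin and with overlapping intervals between all later neighbours. That first bin held 54.25 UMIs of Ctrb1 per file. Over the summed files 30.8% of its cells had a Ctrb1 UMI, the lowest share of the 6 bins. Its level can therefore rest on few cells, which the interval does not cover.

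**Figure D1:**
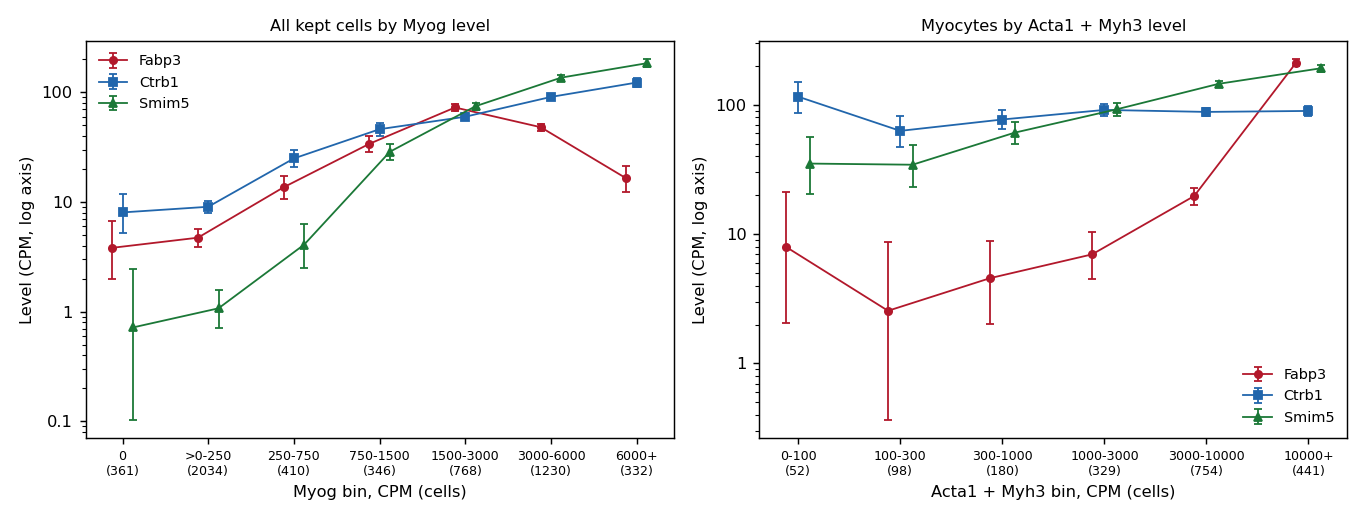
Levels of Fabp3, Ctrb1 and Smim5 (CPM, log axis) in all kept cells by Myog bin (left) and in myocytes by Acta1 plus Myh3 bin (right), with cell numbers under the bins. Bars are exact 95% Poisson intervals at the mean count of 1 file. Fabp3 peaks at 72.9 CPM in the middle of the Myog range and reaches 211 CPM in the last Acta1 plus Myh3 bin, where Ctrb1 stands at 89.4 CPM.

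Between the 441 myocytes with the most Acta1 plus Myh3 (10000 CPM and over, called late) and the 330 with the least (under 1000 CPM, called early), Fabp3 differed most. It stood at 211 against 4.51 CPM, 46.9-fold, with a log2 ratio of 5.27 (4.59 to 6.04). Smim5 stood at 191 against 49.5 CPM, 3.85-fold, with a log2 ratio of 1.92 (1.68 to 2.17). Ctrb1 stood at 89.4 against 78.6 CPM, and its log2 ratio of 0.18 had an interval that includes no difference (-0.04 to 0.41). Over all 5214 genes tested at 20 CPM or more the median log2 ratio was -0.30, and 6.85% were at least 2-fold higher in late cells and 9.38% at least 2-fold lower. Fabp3 was above 99.8% of them.

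Contractile genes rose alongside. Of 11 measured slow or cardiac-type fibre genes 9 were at least 2-fold higher in late cells, among them Casq2 (calsequestrin 2, a calcium store of the sarcoplasmic reticulum; 409 against 6.33 CPM) and Mb (myoglobin; 735 against 91.4 CPM), and of 8 fast fibre genes 7 were, among them Tnnc2 (fast troponin C; 1599 against 115 CPM). Of 35 listed genes of fatty acid binding, uptake and oxidation, 12 were measured, meaning at 20 CPM or more in myocytes. Of these 12, 0 were higher and 1 was lower, Lpl (lipoprotein lipase, 15.1 against 60.4 CPM). Fabp5, another fatty acid binding protein, stood at 234 against 193 CPM, and Acadl (long-chain acyl-CoA dehydrogenase) at 384 against 244 CPM. Of 18 measured small membrane protein genes 4 were higher, including Smim6 (66.7 against 2.29 CPM) and Mymx (myomixer, needed for fusion of myoblasts; 534 against 203 CPM).

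Within the late range the 3 genes went different ways along Myog (bins chosen after the values were seen). Among all 476 kept cells at this Acta1 plus Myh3 level, Fabp3 fell over the Myog bins under 1500 (24 cells), 1500 to 3000 (130), 3000 to 6000 (247) and 6000 CPM and over (75), from 490 through 335 and 175 to 42.4 CPM. Ctrb1 rose over the same bins from 4.68 (0.453 to 18.2) through 51.2 and 98.6 to 159 CPM. Smim5 went from 112 through 138 and 211 to 217 CPM, with intervals that overlap between the first 2 bins and between the last 2. Between the highest bin and that of 1500 to 3000 CPM the log2 ratio was -2.95 for Fabp3 (-3.48 to -2.47), 1.62 for Ctrb1 (1.23 to 2.01) and 0.65 for Smim5 (0.36 to 0.92). For Ctrb1 it lay at 1.22 without replicate 1, when the bins were formed from the other files. Among late myocytes 59.6% had no Ctrb1 UMI and 28.3% no Fabp3 UMI. Levels in bins of 24 or 75 cells can therefore rest on few cells. The intervals do not cover this and are too narrow as a measure of difference between cells.

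When the late myocytes were instead split into quartiles of Acta1 plus Myh3, Fabp3 rose from 63.5 through 95.1 and 192 to 490 CPM, still climbing at the top of the range. Smim5 stood at 199, 202, 195 and 168 CPM, with overlapping intervals, and Ctrb1 at 82.2, 135, 70.1 and 71.2 CPM. Fabp3 thus rose most steeply over a range in which Smim5 did not rise.

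**Figure D2:**
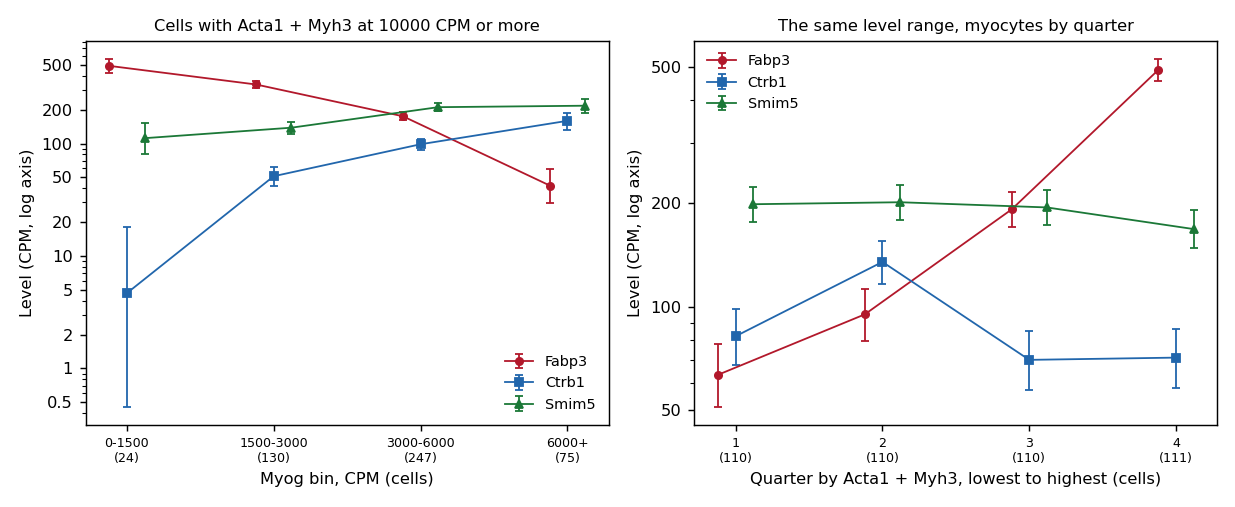
Levels (CPM, log axis, exact 95% Poisson intervals at the mean count of 1 file) at Acta1 plus Myh3 of 10000 CPM or more, by Myog bin in 476 kept cells (left) and by quartile of Acta1 plus Myh3 in 441 myocytes (right). Fabp3 falls from 490 to 42.4 CPM along Myog and rises from 63.5 to 490 CPM along Acta1 plus Myh3, and Ctrb1 rises from 4.68 to 159 CPM along Myog.

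Single myocytes differed far more in Fabp3 and Ctrb1 than in Smim5. No Fabp3 UMI was found in 66.8% of the 1854 cells, no Ctrb1 UMI in 60.6% and no Smim5 UMI in 15.8%, over the summed files. The 90th, 95th and 99th percentiles over cells were 106, 300 and 1128 CPM for Fabp3, with a highest cell of 3386 CPM (202 UMIs). For Ctrb1 they were 225, 458 and 1244 CPM, with a highest cell of 2938 CPM (169 UMIs). For Smim5 they were 286, 343 and 463 CPM, with a highest cell of 701 CPM (42 UMIs) and a median of 109 CPM. The 10% of myocytes with the most UMIs of a gene held 84.9% of those of Fabp3, 74.9% of those of Ctrb1 and 29.6% of those of Smim5. Genes of like mean (within 25% of the same mean count) had medians of 30.8%, 28.2% and 26.2%.

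**Figure D3:**
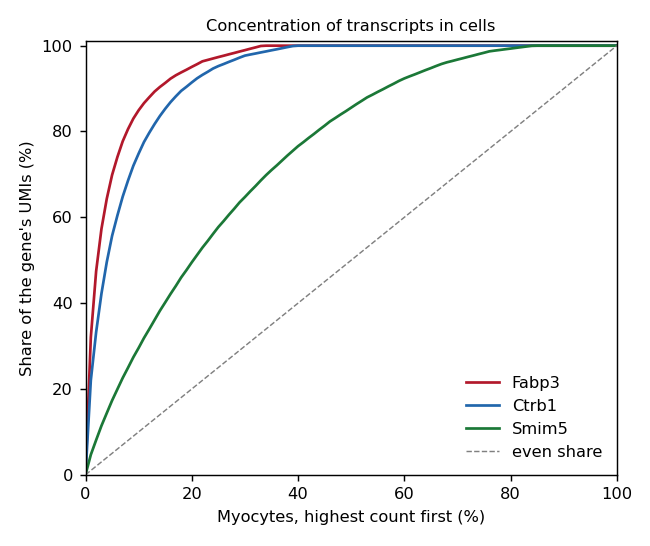
Share of each gene's UMIs (y axis, %) held by the given share of the 1854 myocytes, ordered from the highest count down (x axis, %); the dashed line is an even share. At 10% of cells the curves stand at 84.9% for Fabp3, 74.9% for Ctrb1 and 29.6% for Smim5.

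As a measure of spread that fits counts, the Fano factor (variance over mean, 1 for random counting) was taken in each file thinned to 5000 UMIs, over 1789 myocytes deep enough for it. It was 5.21 for Fabp3 (SD over files 0.322), against a median of 1.06 over 1053 genes of like mean, none of which was higher. It was 4.32 for Ctrb1 (SD 0.344), against a median of 1.07 over 860 such genes, and rank 3. It was 1.33 for Smim5 (SD 0.0174), against a median of 1.11 over 558 such genes, and rank 97. The same cells were high in each file. The correlation of a gene's count between files was 0.833 for Fabp3, 0.835 for Ctrb1 and 0.498 for Smim5. Medians for genes of like mean were 0.231, 0.249 and 0.281. As the files share cells and may share molecules, these values describe repeated counts of the same cells, not repeatability of the sample.

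The cells with much Fabp3 were late ones, and those with much Ctrb1 were not. Of 50 myocytes at 500 CPM of Fabp3 or more, 47 had Acta1 plus Myh3 at 10000 CPM or more, and of the 330 early myocytes 0 reached that level. Even so, 28.3% of the late myocytes had no Fabp3 UMI, and their median was 50.1 CPM, with a 90th percentile of 514 CPM. For Ctrb1, 19 of 441 late (4.31%) and 15 of 330 early myocytes (4.55%) reached 500 CPM, and 14 of the 476 dividing cells with Myog did so too. Cells without Ctrb1 made up 59.6% of late and 64.8% of early myocytes. For Smim5 the cells without a UMI went from 47.9% of early to 2.72% of late myocytes, and only 14 myocytes reached 500 CPM.

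Differences between the 6 Acta1 plus Myh3 bins accounted for 27.7% of the variance of Fabp3 between myocytes. For Smim5 the share was 24.6% and for Ctrb1 0.0824%. These are shares of the variance of the log-scaled levels used for the correlations below, from UMIs summed over the files. Within the last bin the Fano factor of Fabp3, from thinned counts, was 5.13, after 1.84 in the bin before it. Its mean counts there were 1.06 and 0.089 UMIs. As the Fano factor can rise with the mean, these 2 values do not compare relative spread. For Ctrb1 the Fano factor lay between 3.02 and 4.88 in every bin, and for Smim5 between 1.13 and 1.54.

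**Figure D4:**
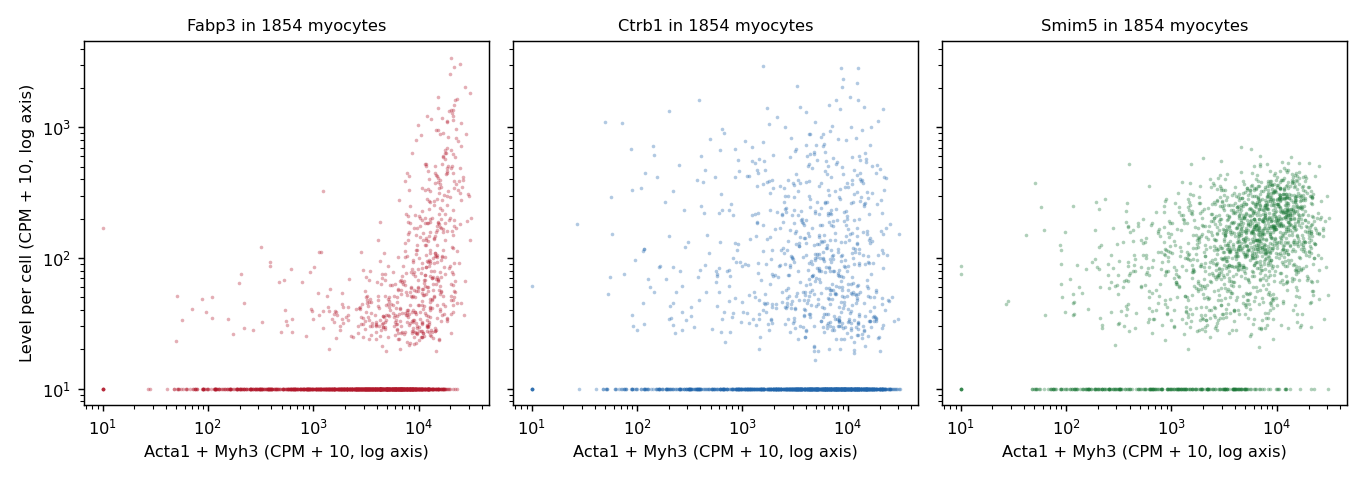
Level per myocyte (CPM plus 10, log axis) of Fabp3, Ctrb1 and Smim5 against Acta1 plus Myh3 (CPM plus 10, log axis); each point is 1 of 1854 cells and the row at the bottom holds cells without a UMI. Fabp3 fans out at the right edge, Ctrb1 is spread alike over the whole range, and Smim5 forms 1 cloud that thins out towards the left.

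Correlations between the 3 genes were weak. Over the 1854 myocytes, Pearson's r of log2 (1 + UMIs per 10000) was -0.04 for Fabp3 with Ctrb1, 0.16 for Fabp3 with Smim5 and 0.03 for Ctrb1 with Smim5. After linear adjustment for Acta1 plus Myh3, Myog, total UMIs and mitochondrial percent (called residual r below) the values were -0.02, 0.03 and -0.00. Spearman's rank correlation of Fabp3 with Smim5 was higher, at 0.25, and 0.06 after adjustment. In the 441 late myocytes Fabp3 and Smim5 had a plain r of -0.20. These and the following correlations are over cells of 1 sample that share their libraries, and are descriptions.

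Many genes went with Fabp3. The 8 highest residual r among 5210 genes at 20 CPM or more belonged to Pacsin3 (0.48, a membrane-shaping protein of muscle), Casq2 (0.41), Myoz2 (0.40, calsarcin, a protein of the Z-disc), Tceal7 (0.40), Pycard (0.40, an inflammasome adaptor), Hras (0.39, a small GTPase), Myl4 (0.38, an embryonic and atrial myosin light chain) and Dhrs7c (0.37, an enzyme of the sarcoplasmic reticulum). Before adjustment the highest were Pacsin3 (0.61), Casq2 (0.58), Myoz2 (0.54), Tceal7 (0.54) and Cox6a2 (0.53, the muscle form of a cytochrome oxidase subunit). The lowest residual r were those of Actb (-0.36) and Actg1 (-0.33), the non-muscle actins, Rpl12 (-0.33), a ribosomal protein, and Mef2a (-0.31), a muscle transcription factor. Residual r reached 0.2 for 100 genes (1.92%) and -0.2 for 66 (1.27%). All 8 of the highest genes also rose from early to late myocytes, with log2 ratios from 1.68 (Hras) to 5.80 (Casq2). The adjustment is linear, whereas Fabp3 rose only in the last 2 Acta1 plus Myh3 bins. How much of these values still follows Acta1 plus Myh3 was not tested. In late myocytes alone, 3 of these 8 genes remained among the 8 highest.

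With Ctrb1, by contrast, 0 of 5210 genes (0%) reached a residual r of 0.2 and 0 (0%) reached -0.2. The highest values were those of S100a6 (0.16) and S100a4 (0.14), calcium-binding proteins, Slc25a5 (0.15), a mitochondrial ADP/ATP carrier, Rrm2 (0.14), a ribonucleotide reductase subunit, Sh3bgrl3 (0.13), Pkm (0.13), the muscle pyruvate kinase gene, Lgals3 (0.13), a galectin, and Cd9 (0.12), a tetraspanin. Txn1 (thioredoxin) had a plain r of 0.13. The lowest were Tpm2 (-0.14), Mylk4 (-0.12), Actc1 (-0.10) and Trdn (-0.10), genes of the contractile and calcium release apparatus. All of these are weak correlations in sparse counts.

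With Smim5, 1 gene (0.0192%) reached a residual r of 0.2, Mef2c (0.23), a transcription factor of muscle differentiation, and 0 (0%) reached -0.2. It was followed by Mybph (0.19), a myosin binding protein, Pde7a (0.16), a cAMP phosphodiesterase, Unc45b (0.16), a myosin chaperone, Itgb1bp2 (0.16), Myl4 (0.16), Tpm2 (0.16) and Filip1 (0.16). Before adjustment 297 genes had an r of 0.2 or more, with Mef2c (0.50), Mybph (0.50), Tpm2 (0.49), Tnnt2 (0.49) and Myl4 (0.49) at the top. The lowest residual r were those of Fscn1 (-0.15), an actin bundler, Spats2l (-0.14), Actb (-0.13) and Socs2 (-0.13).

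**Figure D5:**
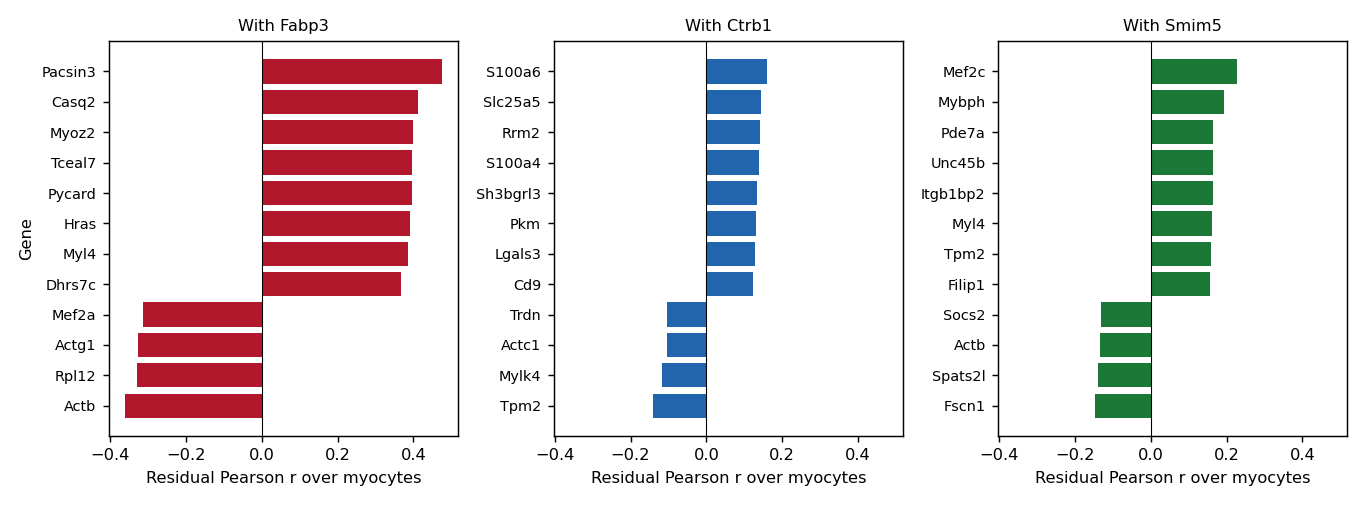
Residual Pearson r (x axis) over 1854 myocytes of the 8 highest and 4 lowest genes with Fabp3, Ctrb1 and Smim5, on 1 shared axis. The bars for Fabp3 reach from -0.36 to 0.48, those for Ctrb1 from -0.14 to 0.16 and those for Smim5 from -0.15 to 0.23.

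Myocytes were also split within each Acta1 plus Myh3 bin into terciles of each gene, and the upper was set against the lower (616 cells each). With most cells at 0 for Fabp3 and Ctrb1, the lower tercile of these genes is nearly all cells without them. Ties were broken at random, so it is only a part of such cells. In every bin but the last, only 7.14% to 28.8% of myocytes had a Fabp3 UMI. The upper tercile of Fabp3 there includes cells without a UMI, so its ratios do not set cells with Fabp3 against cells without it. For Fabp3 the upper tercile stood at 170 and the lower at 0.809 CPM. It also had more Acta1 plus Myh3 (7818 against 6350 CPM), less Myog (3772 against 4463 CPM) and more UMIs per file (median 11724 against 10861). Of 5215 genes, 70 (1.34%) were at least 1.5-fold higher in the upper tercile and 0 (0%) lower. When terciles were formed within 20 equal groups by Acta1 plus Myh3, a closer match added after seeing the data, 37 were higher and 1 lower. The part of Myog and depth in these counts was not tested.

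Of the 35 genes of the fatty acid list, 12 were measured, at 20 CPM or more. Of these, 0 were 1.5-fold higher or lower with Fabp3, with a median log2 ratio of -0.01 beside -0.03 over all genes. Among those under 20 CPM, Cd36 (2.37-fold), Acsl6 (1.89-fold) and Cpt1b (1.66-fold) were higher, for Cpt1b with an interval that includes no difference. Cpt1a (0.865-fold) and Acsl5 (0.893-fold) were lower, with intervals that include no difference. Fabp5 stood at 216 against 173 CPM, Acadl at 319 against 311 CPM and Hadha (a subunit of the trifunctional protein of beta-oxidation) at 126 against 125 CPM. Lpl went the other way, at 28.3 against 37.9 CPM (log2 ratio -0.41, -0.67 to -0.15). Of 11 listed nuclear receptors and coactivators 3 were measured and none of these passed. Ppargc1a, a coactivator of mitochondrial genes, stood at 30.3 against 22.1 CPM. Under 20 CPM, the receptors Rxrg (2.85-fold) and Esrrg (1.85-fold) were higher. Of 11 slow or cardiac-type genes 2 were higher, Casq2 (219 against 111 CPM, 1.97-fold) and Myh7 (slow myosin, 61.4 against 39.8 CPM, 1.53-fold), and the list's median log2 ratio was 0.45. Of 8 fast fibre genes 3 were higher, Tnnc2 (1.96-fold), Myh1 (a fast myosin, 1.62-fold) and Myl1 (a fast myosin light chain, 1.56-fold), with a list median of 0.36. Of 18 small membrane protein genes 2 were higher, Smim6 (1.81-fold) and Smpx (1.52-fold). Of 13 regulators 0 passed, with Mef2c at 1157 against 851 CPM, Myod1 at 566 against 659 CPM and Mef2a at 1075 against 1306 CPM.

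For Ctrb1 the upper tercile stood at 244 CPM and the lower held 0 UMIs. Only 3 genes (0.0575%) were 1.5-fold higher in it, namely Thbs1 (thrombospondin 1, 46.2 against 28.2 CPM), Spp1 (osteopontin, 84.5 against 53.3 CPM) and R3hdml (27.8 against 17.4 CPM). The 5 lower genes (0.0959%) were Aebp1 (0.616-fold), Gm14216 (0.638-fold), Frem2 (0.638-fold), Pak3 (0.643-fold) and Ryr3 (a calcium release channel, 0.652-fold); these 8 were named after their values were seen. Within the 20 equal groups the counts were 6 and 2. None of the measured genes of the other lists passed. Of 23 pancreatic secretory enzymes and acinar factors, 0 reached 20 CPM in myocytes. The 7 acinar markers among the cell type markers summed to 0.151 CPM, and Prss1, Prss2, Pnlip, Amy2a5 and Ptf1a were at 0. The Acta1 plus Myh3 level of the terciles was close (7169 and 7076 CPM), and so was Myog (4207 and 4163 CPM). Depth was not, with a median of 11486 against 10520 UMIs and 3092 against 2894 genes per file, and its part in the result was not tested.

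For Smim5 the upper tercile stood at 246 and the lower at 42.0 CPM, with Acta1 plus Myh3 at 7045 and 7033 CPM and Myog at 4724 and 3768 CPM. Here 10 genes (0.192%) were higher and 29 (0.556%) lower, and within the 20 equal groups 8 and 17. From the lists, Cdkn1c (the cell cycle inhibitor p57) was 2.11-fold higher (255 against 120 CPM) and Smim6 1.78-fold (34.6 against 19.0 CPM), whereas Lpl was 0.523-fold (21.3 against 41.7 CPM). Cdkn1c had a residual r with Smim5 of only 0.03, and Mef2c, with the highest residual r, was 1.36-fold higher. Fabp3 itself was among the lower genes, at 45.0 against 99.8 CPM, although its plain r with Smim5 over all myocytes was 0.16 and its residual r 0.03. The part of Myog, which differed between these terciles, was not tested.

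Smim6, whose product is another small membrane protein, is the next coding gene after Smim5 on the same strand, 5747 bases away. It stood at 28.5 CPM in myocytes against 2.29 CPM in other kept cells, and its r with Smim5 was 0.32, or 0.14 after adjustment. Recql5, the helicase gene around Smim5, stood at 14.4 against 8.96 CPM, with a residual r of 0.04. The neighbours of Ctrb1, Zfp1 and Bcar1, had residual r of -0.01 and 0.04. Those of Fabp3, Serinc2 and Snrnp40, had -0.05 and -0.08, and Zcchc17 -0.05. Adipocyte markers, which could accompany Fabp3, summed to 0.140 CPM in myocytes, with Adipoq, Cidec and Lep at 0.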

How the data were processed

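Single-cell RNA of 1 sorted population was counted in 4 libraries. The authors deposited whole-number UMI counts for each gene and barcode, and the headers of these files name Cell Ranger 7.1.0. The submitters' processing notes list Cell Ranger 3.1.0 and the builds mm10 and GRCm39 with no role, so the build behind the counts is not settled, and coordinates are those of the reference annotation. The treatment of strand and intronic reads is not given in the sources used here.

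The files share their cells, so UMIs were summed and n is 1. No test between cells was run. CPM are UMIs per 1000000. Log2 ratios are on CPM plus 1 with exact conditional binomial intervals. Genes under 20 CPM in myocytes stayed out of the comparisons across genes. No doublets were called, and leaving out the deepest 5% of cells was an alternative. Named genes are the 8 highest and 4 lowest residual r, the 5 highest plain r, genes of the lists and the coding neighbours. The genes, lists and cell bins were chosen with earlier results of these data known. Scripts used numpy 2.4.6 and scipy 1.17.1 and were tested on simulated data.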

Additional observations from a re-analysis of the deposited data

Results flagged for a closer look

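The level of Fabp3 in all kept cells was 27.2 CPM in replicate 2, apart from 29.0, 28.7 and 28.7 CPM in the other files. Of 12 values compared over the 4 files (6 levels, 3 log2 ratios and 3 Fano factors) it was the only 1 whose gap to the nearest file, divided by the range, passed Dixon's 95% value of 0.829, and chance gives about 5% of such groups.

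The 463 barcodes left out by the cell filter, which no comparison uses, held UMIs of all 3 genes above the limit that a count of 0 allows. In CPM without mitochondrial UMIs, Fabp3 stood at 12.04 CPM (4.64 to 25.5, from 6.5 UMIs per file), Ctrb1 at 8.33 CPM (2.50 to 20.3, from 4.5) and Smim5 at 37.0 CPM (22.6 to 57.2, from 20). On the same scale the kept cells stood at 29.5, 46.2 and 55.7 CPM.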

How the results depend on the processing

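Of 147 alternatives 121 stayed within the counting error or file spread of the value given, 26 moved and 0 changed direction. Fano factors and shares of cells with a UMI fall with depth: 33.2% of myocytes had a Fabp3 UMI in the summed files and 12.2% in thinned files. With Myog at 3000 CPM or more the levels were 47.7 (Fabp3), 99.4 (Ctrb1) and 153 CPM (Smim5), the late to early log2 ratios 4.51 (Fabp3) and 1.53 (Smim5), and the Fano factors 4.39 (Fabp3) and 1.30 (Smim5). For Fabp3, at least 2000 genes and under 5% mitochondrial UMIs gave 60.5 CPM and a Fano factor of 4.86, Mki67 plus Top2a at 0 gave 81.4 CPM and 5.70, leaving out the deepest 5% of cells 63.2 CPM, and the mean of cells 58.4 CPM. At 2500 UMIs per file the Fano factors were 2.84, 2.73 and 1.17. Of the 8 genes with the highest residual r, Spearman ranks kept 3 for Ctrb1 and 5 for Smim5, and late myocytes alone kept 3 for Fabp3, 2 for Ctrb1 and 2 for Smim5. Over 20 equal groups by Acta1 plus Myh3 (added after seeing the data), the genes 1.5-fold higher with Fabp3 were 37, those higher and lower with Ctrb1 6 and 2, and those lower with Smim5 17. Leaving out each replicate, with the myocytes chosen again from the other files, gave 63.4 to 66.5 CPM for Fabp3, 87.0 to 87.3 for Ctrb1 and 134.1 to 136 for Smim5. These ranges therefore also hold the change in the cells chosen. No paired analysis was possible because all libraries belong to 1 group.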

Other observations

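Some genes under 20 CPM in myocytes, outside the comparisons across genes, differed between the Fabp3 terciles. Casq1 (fast calsequestrin) stood at 14.9 against 2.61 CPM (log2 ratio 2.14, 1.51 to 2.83), Rxrg (a retinoid X receptor) at 25.8 against 8.39 CPM (1.51, 1.10 to 1.94), Myf6 (the myogenic factor MRF4) at 18.8 against 6.44 CPM (1.41, 0.95 to 1.90) and Cd36 (a fatty acid transporter) at 11.04 against 4.08 CPM (1.24, 0.67 to 1.85). With Smim5, Casq1 went the other way, at 3.81 against 11.7 CPM (-1.40, -2.02 to -0.81), and so did Myf6, at 10.1 against 17.8 CPM (-0.76, -1.18 to -0.34). Rxrg went the same way as with Fabp3, at 21.02 against 14.7 CPM (0.49, 0.12 to 0.85), and Cd36 stood at 6.02 against 9.15 CPM (-0.53, -1.09 to 0.02).

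A few other genes, named after their values were seen, were as unevenly spread over myocytes. Among genes of a mean like that of Fabp3, Rian (a noncoding RNA) had 94.9% and Prkg1 (a cGMP-dependent kinase) 85.6% of its UMIs in the top 10% of cells. Among those like Ctrb1, Sln (sarcolipin, an inhibitor of the calcium pump) had a Fano factor of 6.03 and Mgp (matrix Gla protein) one of 4.37, and Col8a1 had 75.8% of its UMIs in the top 10% of cells. In the upper Smim5 tercile the noncoding RNAs Meg3 (308 against 185 CPM) and Rian (80.7 against 48.0 CPM) were higher and Igfbp5 (11.9 against 26.0 CPM) and Mest (92.4 against 155 CPM) lower. The 8 genes with the highest residual r with Fabp3 in late myocytes alone began with Cox5a (0.36), Tnni1 (0.34), Reep5 (0.33) and Tnnc1 (0.33).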
